A study of Mus musculus with 3 samples.

Results

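The mitosis and G2/M genes described here are 36 genes whose products carry a cell from the end of DNA replication through division. They were chosen by name for their known roles in division, and each is represented by the brightest of its probes on the array, giving 36 of the 20825 genes that could be named there. Their expression was measured in mouse tail-tip fibroblasts on day 8 after the cells had received Oct4, Sox2, Klf4 and c-Myc, with 1 microarray per group. The groups were cells of old p16-/- mice aged 22 months, cells of old wild-type (WT) mice aged 22 months and cells of young WT mice aged 2 months. By the labels all groups received the factors, so none shows the cells before reprogramming. The labels give neither the strain nor the number of donors behind an array. The design text mentions a pair of independent experiments with different donors; 1 array per group was analysed here. With no replicate arrays, no test could be run, and every difference below is between arrays rather than between conditions with a known spread.

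Genes of this group are transcribed periodically. In resting cells and in G1 they are held down by pocket proteins and the DREAM complex. In G2 they are activated by B-Myb and Foxm1, many of them through a promoter element called the cell cycle genes homology region (CHR) and neighbouring CCAAT boxes bound by NF-Y. The protein p16, encoded by Cdkn2a, inhibits the kinases Cdk4 and Cdk6, which inactivate the pocket proteins. Fibroblasts must divide to form reprogrammed colonies, and bulk expression of mitotic genes is commonly used as a measure of proliferation. In such bulk RNA, a change in the number of dividing cells and a change in mRNA per dividing cell cannot be told apart.

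The arrays were close in overall signal. The 75th percentile of processed signal, the background-subtracted spot brightness, was 2058 on old p16-/-, 2051 on old WT and 2138 on young WT, and 58.4%, 61.6% and 57.4% of spots were well above background in that order. The signal of Cdkn2a was 28065 on old p16-/-, 65464 on old WT and 62705 on young WT; where its probe lies relative to the deletion is not known here, so this does not check the genotype. All 10 fibroblast markers were above background on each array. Of the 10, 2 were higher and 8 lower on old p16-/- than on old WT, with a median log2 ratio of -0.09. Thy1 was far lower on old p16-/-, at 3287 against 52045 on old WT and 69467 on young WT. Pdgfra went the other way, at 2682 on old p16-/-, 884 on old WT and 651 on young WT. Macrophage and leukocyte markers differed between the arrays: their summed signal over 12 genes was 2230 on old p16-/-, 6469 on old WT and 24236 on young WT, with 4, 11 and 11 of them above background, and Adgre1, Cd52, Tyrobp, Lyz2, C1qa, C1qb, C1qc and Ctss were not well above background on old p16-/-. Higher on old p16-/- than on old WT were 2 of the 12: Laptm5 was at 353 on old p16-/-, 240 on old WT and 572 on young WT, and Ptprc was above background on old p16-/- alone, at 89.9. The Y-linked gene Ddx3y was above background on young WT only, and Xist on both old arrays only, so the comparisons with young WT also differ in sex-linked expression. The part of these cells, and of donor sex, in the results below was not tested. Of 10 pluripotency markers, 6, 5 and 5 were above background on old p16-/-, old WT and young WT, and Pou5f1 (Oct4) was above background on none. Sox2 was above background on old p16-/- only, at 72.8. It is not known here if the array's Oct4 and Sox2 probes read the delivered copies, so these levels do not check delivery.

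The 36 genes lay together. All 36 had a higher level on the old p16-/- array than on the old WT array, against 52.1% of the 14681 genes counted in that comparison; with quantile or cyclic loess scaling Prc1 lay below 0 (-0.02 and -0.03). Cenpf was counted because it was above background on old p16-/- alone, which fixed its direction; of the genes above background on both arrays, 35 of 35 were higher, against 54.4% of 13272. The median log2 ratio of the 36 was 0.60 (1.51-fold), beside 0.02 for all genes counted, and their quartiles of 0.49 and 0.71 lay closer together than those of all genes, -0.24 and 0.24. At least 1.5-fold higher were 20 of the 36, against 11.5% of all genes, or 19 of 35 against 9.62% without genes above background on 1 array only. At least 2-fold higher was 1, the checkpoint gene Bub1b, against 5.83% of all genes. None of the 36 was 1.5-fold lower, against 12.6% of all genes, or 2-fold lower, against 6.6%. The ratios ran between 0.04 for Prc1 and 1.06 for Bub1b, and 16 of the 36 did not reach 1.5-fold. Where the brighter of the arrays reached a signal of 1000 or more, 16 of 30 of the genes were at least 1.5-fold higher, against 7.29% of 8835 genes.

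Between the WT arrays the same genes lay the other way. On the old WT array 34 of 35 genes counted were lower than on young WT, against 50% of 14534 genes, and Pttg1 was the 1 that was higher, against 47.3%. The median log2 ratio was -0.34, that is 1.27-fold lower on old WT, beside 0.00 for all genes, and the quartiles were -0.41 and -0.29. These differences were small: 1 of 35 was at least 1.5-fold lower, against 5.02% of all genes, and none was 2-fold lower, against 3.14%, or 2-fold higher, against 2.89%.

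Set against young WT, the old p16-/- array was higher for 32 of 36 genes, against 54.5% of 14266 genes counted. The direction of Cenpf was again fixed, because it was above background on old p16-/- alone. Of the genes above background on both arrays, 31 of 35 were higher, against 54.5% of 12913. The median log2 ratio was 0.25 (1.19-fold), beside 0.03 for all genes. Only 3 of 36 were at least 1.5-fold higher, against 11.3% of all genes, namely Nusap1, Pttg1 and Bub1b. Without genes above background on 1 array only, this was 3 of 35, against 8.9%. None was 2-fold higher, against 6.32%, or 2-fold lower, against 6.95%. The 4 genes below 0, against 45.2% of all genes, were Prc1, Kif20a, Ttk and Nuf2. The 3 comparisons use the same 3 arrays, so they are not independent of each other.

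The order of the arrays gives the same picture per gene. Of the 35 genes above background on all arrays, 30 had the order old p16-/- highest, young WT next and old WT lowest. This order was held by 26.5% of the 12874 genes above background on all arrays. For Ttk, Nuf2, Kif20a and Prc1 young WT was highest and old WT lowest, an order held by 8.96% of all genes. For Pttg1 old p16-/- was highest and young WT lowest, an order held by 18.4%. Cenpf was above background on the old p16-/- array only and has no full order.

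**Figure D1:**
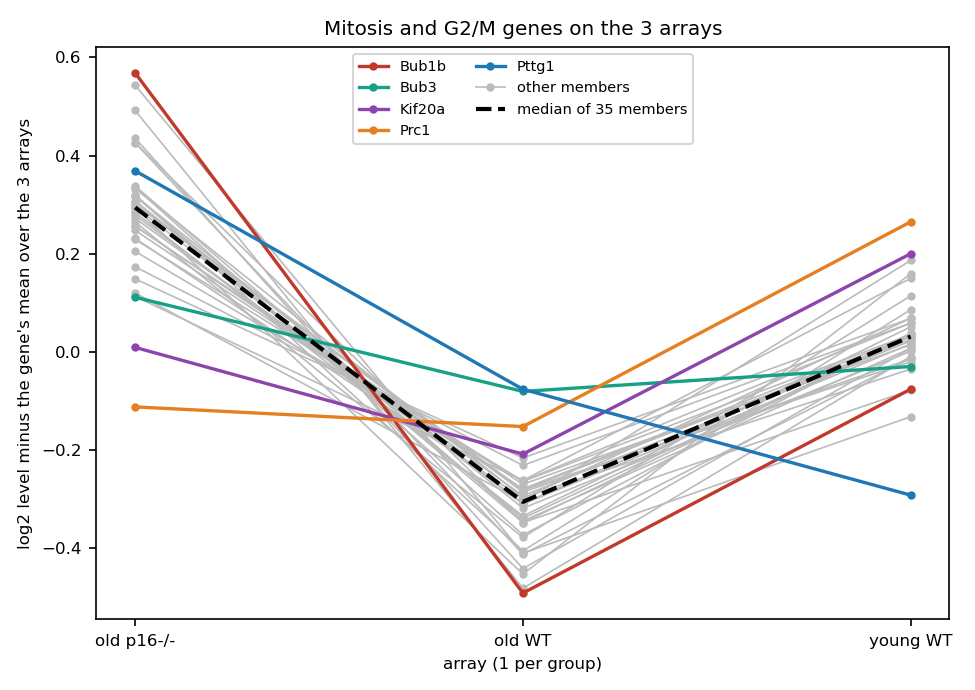
Level of each of the 35 genes above background on all 3 arrays, as log2 signal minus the gene's own mean over the arrays (y axis), by array (x axis); each line is 1 gene and the dashed line is the median. 30 lines are highest on old p16-/- and lowest on old WT; Prc1, Kif20a, Ttk, Nuf2 and Pttg1 run in other orders, and Bub3 is nearly flat.

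The error of the measurement itself could be read in several ways. Bub1, a kinase that recruits checkpoint proteins to kinetochores, is the member whose probe is spotted 10 times on each array, so its spread within an array can be read directly. Its signals ran between 1816 and 2149 on old p16-/-, between 1072 and 1286 on old WT and between 1526 and 1796 on young WT, with medians of 1919, 1174 and 1618. The 10 spots of any array did not overlap with those of another. How many other probes spotted 10 times also separate in this way was not tested, so the separation cannot be called particular to Bub1. The SD of log2 signal over these spots was 0.07, 0.08 and 0.07. Over probes spotted 10 times with at least 8 usable spots above background, its median was 0.05 over 248 on old p16-/-, 0.06 over 265 on old WT and 0.05 over 254 on young WT. These are repeats of the measurement within an array and say nothing of the spread between cultures or donors.

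The scanner software gives a wider error, a median of 10% of the signal for these genes, which combines to a median of 0.20 log2 units for a ratio. Where genes were above background, the error stayed near 10% for all but the dimmest, reaching 19.9%. It therefore acts much like a fixed cutoff on the ratio. By that measure 34 of 36 genes were higher on old p16-/- than on old WT by more than the error, against 27% of all genes, the exceptions being Bub3 and Prc1. Among genes above background on both arrays this was 33 of 35, against 27.3%. On old WT 32 of 35 were lower than on young WT by more than the error, against 14.5% of all genes, and Pttg1 was higher, against 16.2%. Old p16-/- was above young WT by more than the error for 22 of 36, against 24.6% of all genes. Among genes above background on both of these arrays this was 22 of 35, against 24.1%. Old p16-/- was below young WT by more than the error for Prc1, against 22.8% of all genes. For the other 13 of the 36 genes the difference lay within the error.

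A second view came from other probes. Of the 36 genes 13 had further probes, 17 in all, and 15 of these, from 12 genes, were above background on every array. For old p16-/- over old WT, 14 of the 15 gave the same direction as the brightest probe, with a median log2 ratio of 0.63 and a median absolute difference of 0.05 from it. For old WT over young WT all 15 gave the same direction, with a median of -0.32. The exception in the first comparison was a dim probe of Mad2l1, at -0.05. For old p16-/- over young WT 13 of 15 gave the same direction, the others being both further probes of Mad2l1. A dim probe of Pttg1 disagreed in size, at 1.82 against 0.45 for old p16-/- over old WT and 2.64 against 0.66 for old p16-/- over young WT. Further probes read the same RNA on the same arrays as the brightest probe. How often further probes give the same direction over all genes was not tested.

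**Figure D2:**
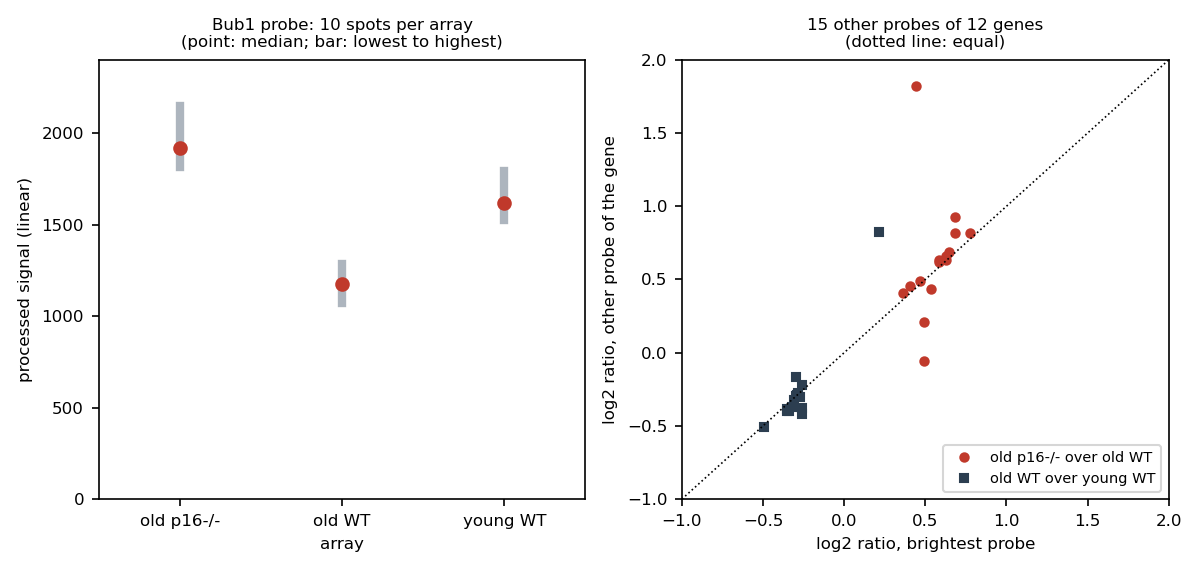
Left, processed signal of the 10 Bub1 spots on each array (point, median; bar, lowest to highest): the 3 bars do not overlap. How many other probes spotted 10 times separate in this way was not tested. Right, log2 ratio by another probe of the same gene (y axis) against that by the brightest probe (x axis) for 15 probes of 12 genes (circles, old p16-/- over old WT; squares, old WT over young WT); most lie near the line of equality, and the Pttg1 probe lies at 1.82.

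The promoters of the genes with the highest ratios of old p16-/- over old WT, and of the gene with the lowest, are shown for the elements that regulate many genes of this group. The sequences, from RefSeq on GRCm38.p6, run from 250 bases before to 50 after the annotated start. The windows are chr2:118597961-118598260, plus strand for Bub1b, chr9:70421505-70421804, minus strand for Ccnb2, chr2:119618048-119618347, plus strand for Nusap1, chr5:30666636-30666935, plus strand for Cenpa, chr15:102296043-102296342, plus strand for Espl1 and chr7:80294201-80294500, plus strand for Prc1. Capitals mark matches to the CHR (TTTGAA or TTCGAA) and the CCAAT box (CCAAT), each on either strand.
Bub1b: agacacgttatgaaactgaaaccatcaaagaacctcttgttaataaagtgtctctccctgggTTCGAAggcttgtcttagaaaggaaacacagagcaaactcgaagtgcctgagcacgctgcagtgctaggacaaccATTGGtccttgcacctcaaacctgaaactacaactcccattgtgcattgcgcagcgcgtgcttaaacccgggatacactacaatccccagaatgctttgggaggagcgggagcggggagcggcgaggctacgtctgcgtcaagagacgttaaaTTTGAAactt
Ccnb2: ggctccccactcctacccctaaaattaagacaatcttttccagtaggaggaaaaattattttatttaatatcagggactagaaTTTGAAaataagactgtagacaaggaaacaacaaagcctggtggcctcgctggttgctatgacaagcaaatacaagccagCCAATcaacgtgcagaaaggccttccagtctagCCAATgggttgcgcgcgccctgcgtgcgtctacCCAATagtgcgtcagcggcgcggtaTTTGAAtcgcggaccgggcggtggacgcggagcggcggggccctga
Nusap1: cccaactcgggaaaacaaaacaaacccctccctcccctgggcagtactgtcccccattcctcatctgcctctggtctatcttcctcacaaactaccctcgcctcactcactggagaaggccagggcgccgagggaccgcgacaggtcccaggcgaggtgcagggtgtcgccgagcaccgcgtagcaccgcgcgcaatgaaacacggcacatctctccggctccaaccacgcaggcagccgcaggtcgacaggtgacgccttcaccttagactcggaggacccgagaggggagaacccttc
Cenpa: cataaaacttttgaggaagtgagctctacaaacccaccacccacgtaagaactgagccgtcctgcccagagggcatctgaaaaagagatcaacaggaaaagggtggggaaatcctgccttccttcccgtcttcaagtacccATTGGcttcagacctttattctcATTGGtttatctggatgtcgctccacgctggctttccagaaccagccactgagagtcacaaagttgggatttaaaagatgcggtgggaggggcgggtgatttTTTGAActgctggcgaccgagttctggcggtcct
Espl1: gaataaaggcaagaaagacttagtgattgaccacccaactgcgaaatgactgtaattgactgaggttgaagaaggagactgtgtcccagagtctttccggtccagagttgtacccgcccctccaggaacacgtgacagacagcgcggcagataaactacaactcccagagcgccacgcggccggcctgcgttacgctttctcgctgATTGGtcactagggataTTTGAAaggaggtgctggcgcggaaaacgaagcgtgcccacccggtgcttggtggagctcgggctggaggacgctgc
Prc1: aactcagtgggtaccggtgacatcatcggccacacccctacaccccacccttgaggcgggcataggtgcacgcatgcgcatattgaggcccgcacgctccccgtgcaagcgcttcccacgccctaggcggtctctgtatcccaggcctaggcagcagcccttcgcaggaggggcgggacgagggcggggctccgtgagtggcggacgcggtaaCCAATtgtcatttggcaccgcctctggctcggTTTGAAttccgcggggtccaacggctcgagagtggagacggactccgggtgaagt

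In the Ccnb2 promoter 3 CCAAT boxes stand in a row ahead of a CHR at the start site, and a further CHR begins at -167. Cenpa, Espl1 and Prc1 each have a CHR close to the start with a CCAAT box upstream. Bub1b has CHRs that begin at -188 and at 40 relative to the start, with a CCAAT box between them. The Nusap1 window holds neither motif. Prc1, whose level was nearly the same on both old arrays, holds both motifs, as do Bub1b, Ccnb2, Cenpa and Espl1 with their high ratios.

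RefSeq windows were found for 29 of the 36 genes, 31 windows in all because Bub3 and Prc1 have more than 1. A CHR was present in 24 of the 31 (77.4%), against 19.2% of 32851 windows of all genes. A CCAAT box was present in 24 of 31 (77.4%), against 37.4%, and both in 22 (71.0%), against 7.52%. A CHR began within 50 bases of the start in 21 (67.7%), against 5.31% of all windows, a distance chosen after the positions were seen. The GC content of the windows had a median of 59.0%, against 52.7% for all. An E2F site (TTTCCCGC, TTTGGCGC, TTTCGCGC or TTTGCCGC, either strand) was present in 1 of 31, that of Cdk1, against 2.26% of all windows, and a TATA box (TATAAA, either strand) in 1, that of Kif2c, against 13.6%. A match is a match of letters and does not show binding.

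Within the group, genes with and without a CHR match in their window overlapped in the size of their ratios. The 22 genes with a CHR had a median log2 ratio of old p16-/- over old WT of 0.63, between 0.04 and 1.06, and the 7 without had 0.53, between 0.38 and 0.95. Those 7 were Birc5, Ccnb1, Cenpe, Mad2l1, Nuf2, Nusap1 and Pttg1. Their windows held no match to the letters searched. A CHR outside the window or with other letters would be missed, so these genes cannot be said to lack one.

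**Figure D3:**
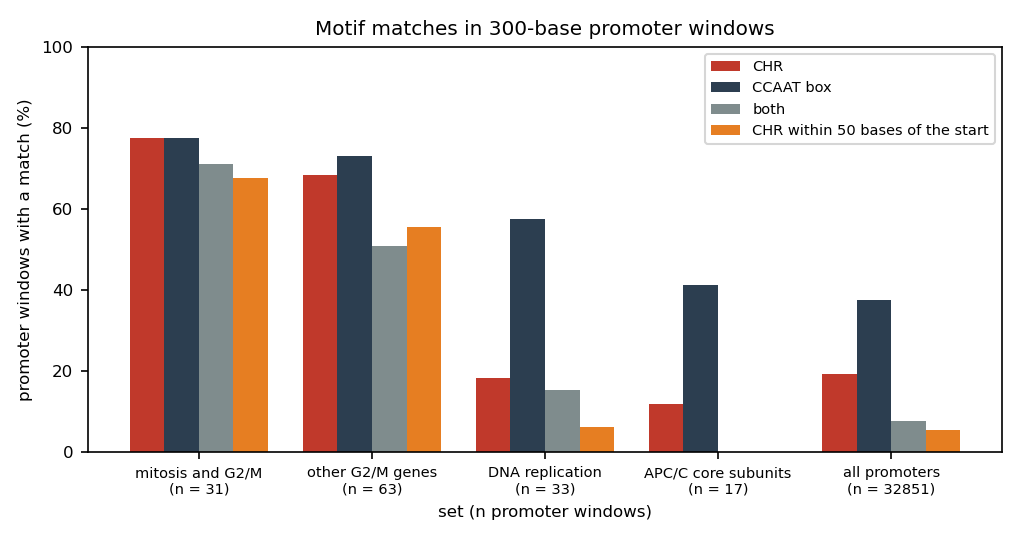
Share of 300-base promoter windows that hold a CHR, a CCAAT box, both, or a CHR within 50 bases of the start (y axis, percent), for the mitosis and G2/M genes, other gene lists and all promoters (x axis, with n windows). The CHR is in 77.4% of the mitosis and G2/M windows and 18.2% of the DNA replication windows, beside 19.2% of all.

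Genes of entry into mitosis were higher on old p16-/- as a whole, with a median log2 ratio of 0.63 over 7 genes, of which 5 were at least 1.5-fold higher, against 11.5% of all genes. Ccnb2, a B-type cyclin that activates Cdk1, had a signal of 13764 on old p16-/-, 6985 on old WT and 10102 on young WT. Old WT was lowest, and the log2 ratios were 0.97 for old p16-/- over old WT and -0.47 for old WT over young WT. Ccnb1, the other B-type cyclin, had a signal of 11909 on old p16-/-, 7673 on old WT and 9591 on young WT, which is the same order with a smaller step of 0.63 and one of -0.26. Its further probes gave 0.63 and 0.66 for the first of these comparisons.

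Cdk1, the kinase that drives entry into mitosis, had a signal of 7109 on old p16-/-, 4726 on old WT and 5907 on young WT. Its ratio of 0.58 lay just under 1.5-fold. Foxm1, a transcription factor that activates G2/M genes, had the smallest ratio of this set, with signals of 2713 on old p16-/-, 1955 on old WT and 2547 on young WT and log2 ratios of 0.47 and -0.32. A second, dimmer Foxm1 probe gave 0.49 and -0.37. The S- and G2-phase cyclin Ccna2 was at 0.64 and -0.32, and the Cdk1-activating phosphatase Cdc25b at 0.61 and -0.33. Its relative Cdc25c was at 0.75 and -0.61, the lowest ratio of old WT over young WT among the 36, from signals of 412 on old p16-/-, 244 on old WT and 390 on young WT.

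The kinases Aurka and Plk1, which mature the centrosomes and build the spindle, kept to the common pattern. Aurka had a signal of 16019 on old p16-/-, 10398 on old WT and 14159 on young WT. Plk1 had 26959 on old p16-/-, 18166 on old WT and 23563 on young WT. The log2 ratios of old p16-/- over old WT were 0.62 for Aurka and 0.57 for Plk1, and those of old WT over young WT were -0.39 and -0.32.

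The spindle checkpoint holds back anaphase until every chromosome is attached, and its 5 genes ranged between 0.19 and 1.06 for old p16-/- over old WT. Bub1b, which encodes the checkpoint protein BubR1, had a signal of 2118 on old p16-/-, 1013 on old WT and 1408 on young WT. It was the highest of the 36 for old p16-/- over old WT, at 1.06 (2.09-fold), and its ratio of old WT over young WT was -0.42. Bub3, a partner of Bub1 and BubR1 that is needed outside mitosis as well, stood at the other end with 17339 on old p16-/-, 15133 on old WT and 16339 on young WT. Its ratios of 0.19 and -0.05 lay within the software's error.

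Bub1 was at 0.71 for old p16-/- over old WT and -0.41 for old WT over young WT, Mad2l1, the gene of the checkpoint effector Mad2, at 0.49 and -0.30, and the checkpoint kinase gene Ttk at 0.43 and -0.49. Ttk had a signal of at most 166 on any array, near the dim end of the range. The further probes of Mad2l1 gave 0.21 and -0.05 for old p16-/- over old WT, so the size of its difference depends on the probe.

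The chromosomal passenger complex corrects faulty attachments and steers cytokinesis. Birc5, which encodes survivin, had a signal of 50754 on old p16-/-, 31512 on old WT and 41931 on young WT. Its ratio of old p16-/- over old WT was 0.68, and its further probes gave 0.93 and 0.82. Incenp, the scaffold of the complex, had 25711 on old p16-/-, 19358 on old WT and 24677 on young WT, so that its levels on old p16-/- and young WT were nearly equal. Its ratios were 0.40 and -0.29, and a second probe gave 0.46 and -0.29. Cdca8, for borealin, was at 0.54 and -0.31. The kinase gene Aurkb was at 0.53 and -0.28, but from signals of no more than 72.4.

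Among centromere and kinetochore genes the median was 0.73 over 5 genes for old p16-/- over old WT and -0.43 over 4 for old WT over young WT. The first median includes Cenpf, whose ratio is a bound with a direction fixed by the filter, and the second leaves Cenpf out. The 2 medians therefore cover different genes, and the first is raised by Cenpf. Cenpa, the histone H3 variant that marks centromeres, had a signal of 5863 on old p16-/-, 3182 on old WT and 4526 on young WT, with ratios of 0.88 and -0.45. Nuf2, a subunit of the Ndc80 complex that binds microtubules, had 1344 on old p16-/-, 1033 on old WT and 1433 on young WT. Young WT was its highest array, by a margin of 0.04 log2 units that is smaller than the error. Its partner Ndc80 was at 0.73 and -0.49, and the kinetochore motor Cenpe at 0.53 and -0.37. Cenpf was above background on old p16-/- alone, at a signal of 64.8. Set against the lowest level above background on old WT, this was 1.78-fold higher, a log2 ratio of 0.83. The software's error for this ratio was 0.46, and another background correction (normexp) gave 0.44, so its size is uncertain.

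Motors and spindle proteins had log2 ratios of old p16-/- over old WT between 0.04 and 0.95 over 7 genes. Nusap1, which bundles spindle microtubules, had a signal of 4260 on old p16-/-, 2192 on old WT and 2771 on young WT. Its ratio of 0.95 over old WT was the third highest of the 36, and that over young WT, 0.68, the highest. Prc1, the crosslinker of the central spindle, had 10380 on old p16-/-, 10064 on old WT and 14011 on young WT. The old arrays were close for Prc1, at a ratio of 0.04 that lies below 0 with quantile or cyclic loess scaling, while old WT was lower than young WT by much the same step as elsewhere, at -0.42.

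Kif20a, a motor of the central spindle, had the same array order as Prc1, with 8070 on old p16-/-, 6919 on old WT and 9573 on young WT. Its ratios were 0.22 and -0.41. Unlike Prc1, it was past the software's error for old p16-/- over old WT. Against young WT, old p16-/- was within that error for Kif20a, at -0.19, and past it for Prc1, at -0.38. The central spindle motor Kif23 was highest on old p16-/-, with ratios of 0.53 and -0.31. The bipolar spindle motor Kif11 was at 0.59 and -0.27, the microtubule depolymerase Kif2c at 0.59 and -0.34 and the spindle assembly factor Tpx2 at 0.36 and -0.28.

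Genes of anaphase had a median of 0.72 over 4 genes for old p16-/- over old WT. Espl1, for separase, which cuts cohesin, had a signal of 1521 on old p16-/-, 848 on old WT and 1166 on young WT, with ratios of 0.84 and -0.40. Pttg1, for securin, the inhibitor of separase, had 21346 on old p16-/-, 15630 on old WT and 14029 on young WT. Securin thus differed from its partner in the WT comparison, where it was the gene above 0, at 0.22. Its second probe had the same order, with 1128 on old p16-/-, 319 on old WT and 188 on young WT. Cdc20, an activator of the anaphase-promoting complex (APC/C), was at 0.66 and -0.38, and Ube2c, the ubiquitin-conjugating enzyme of that complex, at 0.77 and -0.27.

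The proliferation marker Mki67 had a signal of 25203 on old p16-/-, 16087 on old WT and 23594 on young WT. Top2a, the topoisomerase that untangles chromosomes, had 4166 on old p16-/-, 2651 on old WT and 3574 on young WT. Old WT was lowest for both, and the ratios were 0.64 and -0.49 for Mki67 and 0.65 and -0.37 for Top2a. Mki67 differed little between old p16-/- and young WT, at 0.15, and a second probe gave 0.18.

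**Figure D4:**
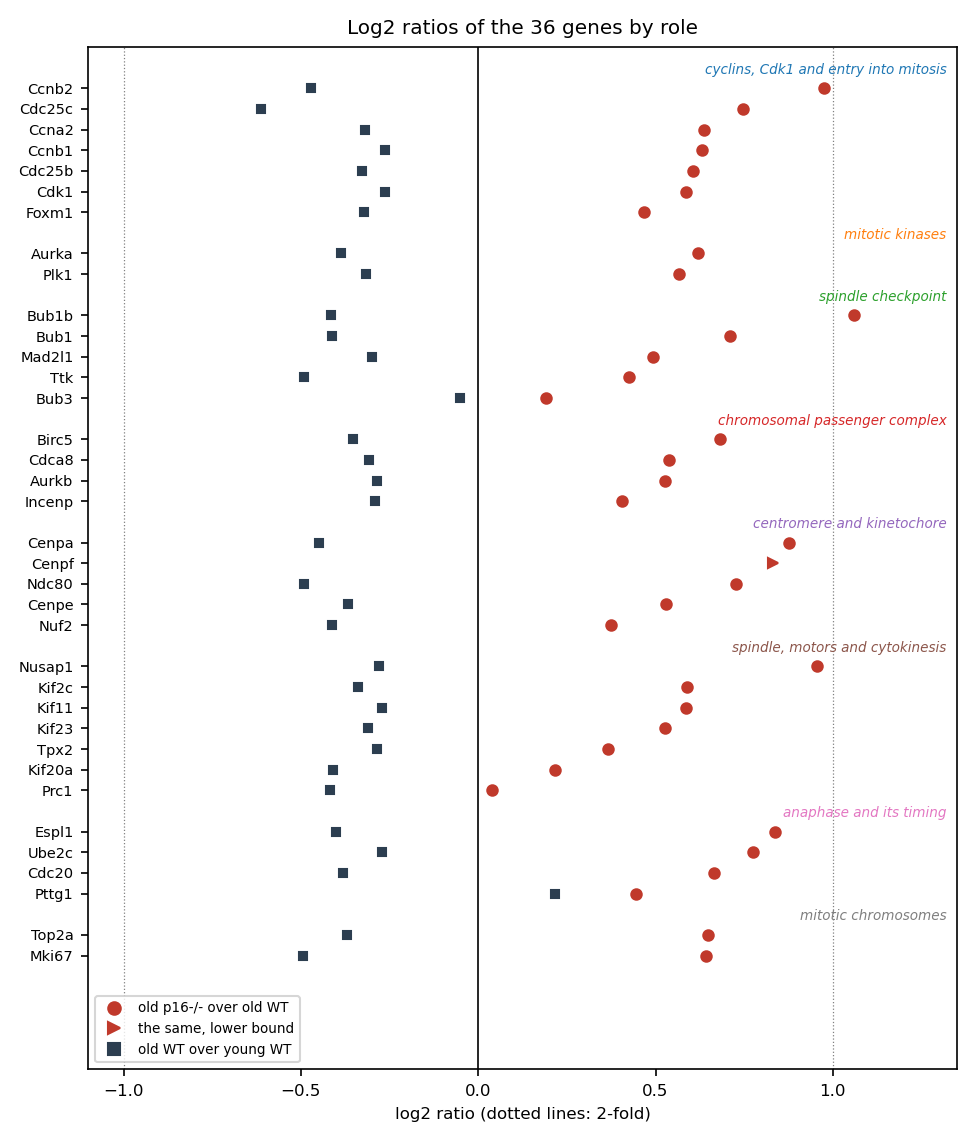
Log2 ratios (x axis) of the 36 genes (y axis), grouped by role. Circles are old p16-/- over old WT and squares are old WT over young WT. The triangle is Cenpf, whose ratio is set against the lowest level above background on old WT. All 36 values of the first comparison lie above 0 (Prc1, at 0.04, lies below 0 with quantile or cyclic loess scaling), with Bub1b past 2-fold, and 34 of 35 of the second below 0, with Pttg1 above.

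Other genes of the same processes, taken from lists that hold none of the 36, lay alongside. Of 69 other G2/M genes on the array, 64 were higher on old p16-/- than on old WT, against 52.1% of all genes. Their median was 0.53. At least 1.5-fold higher were 25, against 11.5% of all genes, and 2 were 1.5-fold lower, against 12.6%. On old WT 67 of the 69 were lower than on young WT, against 50% of all genes, with a median of -0.36. The order old p16-/- highest and old WT lowest was held by 59 of the 69 (85.5%), against 26.5% of all genes. This is close to the 30 of 35 (85.7%) above. The histone H3 kinase gene Haspin at 1.23 was the highest of them for old p16-/- over old WT, followed by Gas2l3 at 1.14. Troap and the Cenpa chaperone gene Hjurp were lower, at -1.49 and -1.41, from signals under 1000 on all arrays.

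Condensin genes were higher on old p16-/- than on old WT for 8 of 8, against 52.1% of all genes, their median being 0.49. They were lower on old WT than on young WT for 8 of 8, against 50%, with a median of -0.36. In the same comparisons DNA replication genes had 33 of 36 higher with a median of 0.56, and 34 of 36 lower with a median of -0.29. The regulators of these programmes differed less. Over 22 DREAM, MuvB and E2F genes the medians were 0.26 and -0.10, with Mybl2, for B-Myb, at 0.91 and -0.37 and E2f8 at 0.75 and -0.43. Cohesin genes were at 0.32 and -0.15 over 10.

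Subunits of the APC/C core and its activator Fzr1, which act in mitosis but are not restricted to it, had medians of 0.04 and -0.00 over 15 and 14 genes. None was 1.5-fold apart in either comparison. Of all genes, 11.5% were 1.5-fold higher and 12.6% lower in the first, and 6.61% and 5.02% in the second. Anapc10 was above background on old p16-/- alone, so its ratio in the first is a bound. The APC/C genes lay at the level of the 15 housekeeping genes, with 0.06 and 0.02. G1 cyclins and their kinases had medians of 0.10 and -0.15 over 8, and the D-type cyclin gene Ccnd1 was lower on old p16-/- than on old WT, at -0.40. The lists thus ranged from those at the level of housekeeping genes to those near the 36 genes, and no test of the difference between lists was made.

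**Figure D5:**
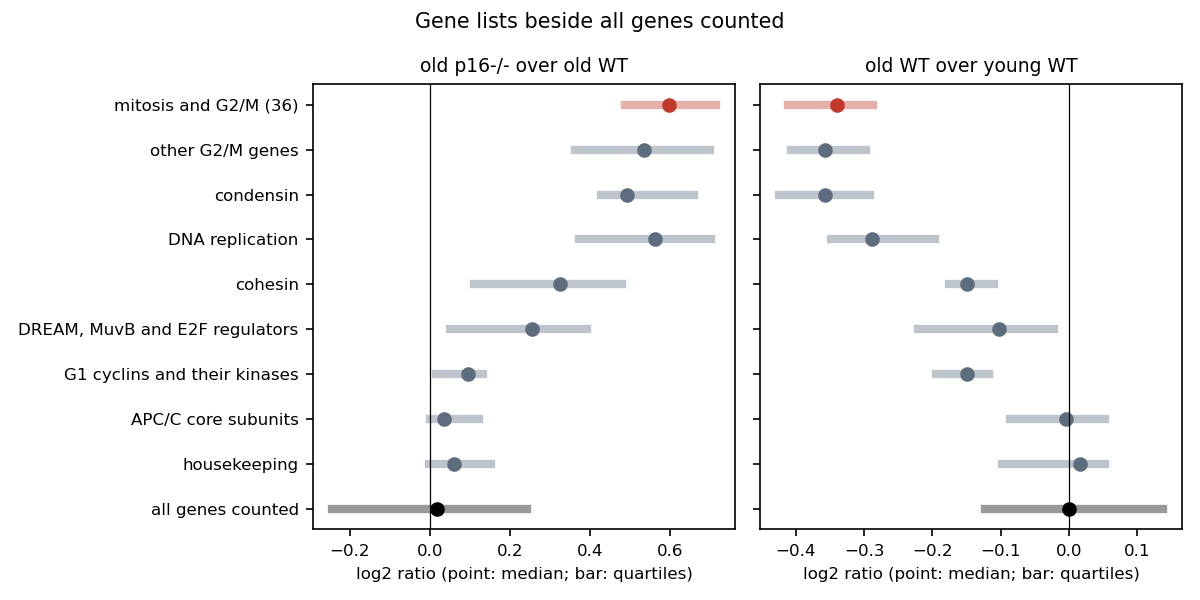
Median (point) and quartiles (bar) of log2 ratios (x axes) for each gene list and for all genes counted (y axis), for old p16-/- over old WT (left) and old WT over young WT (right). The mitosis and G2/M genes lie at 0.60 and -0.34, and APC/C core subunits and housekeeping genes lie near 0, as do all genes.

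The promoter windows differed between lists, also between some with like ratios. A CHR was in 43 of 63 windows (68.3%) of the other G2/M genes and in 6 of 33 (18.2%) of the DNA replication genes, whose share is close to the 19.2% of all windows. Condensin genes, with ratios near those of the DNA replication genes, had it in 6 of 8 (75%). Among lists with smaller ratios, it was in 2 of 17 (11.8%) windows of APC/C core genes and 0 of 7 of G1 cyclins and their kinases. Cohesin genes had it in 2 of 8 (25%) and housekeeping genes in 3 of 11 (27.3%). CHR and CCAAT box no more than 40 bases apart, a distance chosen after the positions were seen, were in 17 of 31 (54.8%) windows of the 36 genes, 24 of 63 (38.1%) of the other G2/M genes and 2.87% of all.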

How the data were processed

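Gene expression was measured with 1-colour Agilent microarrays in 3 samples, 1 per group, all on 1 slide read in 1 scan. The deposited intensity values, the processed signal and its error, were made by the authors with Agilent Feature Extraction 11.5.1.1, which removed background and did not scale between arrays, per the file headers. The deposited series table equalled the processed signal for 39030 of 39030 probes spotted once, within a relative tolerance of 0.0001, on a linear scale with no centring (medians of 132 on old p16-/-, 135 on old WT and 137 on young WT).

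Control spots (1377) and spots marked as outliers (267, 246 and 246 on old p16-/-, old WT and young WT) were left out, none was saturated, log2 signals were averaged per probe, and values were taken relative to the 75th percentile of their array (Python 3.11.15, pandas 2.3.3). Accessions without version were matched to RefSeq genes of GRCm38.p6, which named 27508 of 39429 probes, and each gene took its brightest probe. A gene was counted if 1 or both of the 2 arrays compared showed it well above background. Where it was above on 1, the ratio is a bound against the higher of the dim value and the lowest level above background on that array. With 1 array per group there is no test; precision is limited by how few arrays there are. Differences are described at 1.5- and 2-fold. Of 269 list entries, 268 were on the array; Kif14 was not.

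All 36 genes may be named; signals on every array are given for the highest and lowest gene per role, those 2-fold apart, and Mki67, Top2a, Foxm1, Ccnb1 and Cdk1, and also for Cdc25c, Kif20a and Bub1, chosen after their values were seen. Other lists name genes among their largest ratios. The genes and lists were chosen with earlier results of these data known. Alternatives were other background correction, scaling, probe and filter choices (limma 3.58.1).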

Additional observations from a re-analysis of the deposited data

How the results depend on the processing

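Under 11 alternatives the median log2 ratio of the 36 genes kept its direction, between 0.56 and 0.65 for old p16-/- over old WT, between -0.40 and -0.31 for old WT over young WT and between 0.19 and 0.26 for old p16-/- over young WT. A median was taken as unmoved within 0.08, the SD of replicate spots carried to a ratio. The count at least 2-fold higher on old p16-/- than on old WT was 3 with median scaling and 3 with the mean of all probes of a gene, against 1, and that for old p16-/- over young WT was 2 with the mean of all probes, against 0; these were Pttg1 and Nuf2, with log2 ratios of mean levels of 1.65 and 1.51. The second Nuf2 probe was above background on old p16-/- only, so the Nuf2 values rest on levels at background. None was 2-fold lower in any comparison under any alternative. Prc1 changed direction for old p16-/- over old WT with quantile normalization (-0.02) and cyclic loess (-0.03), as did, for old p16-/- over young WT with the mean of probes, Mad2l1 (-0.04) and Nuf2 (1.51, against -0.04). The planned normexp correction used the median spot signal, since the scanner files hold no mean; this change was made after the files were seen. Other scalings and filters moved the median of all genes by less than 0.1. Ttk, Aurkb and Cenpf are dim, and with the normexp correction their ratios of old p16-/- over old WT were 0.23, 0.29 and 0.44, against 0.43, 0.53 and 0.83. No paired analysis was possible because each group has 1 array and the labels carry no replicate numbers. Leaving out an array would remove its group.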

Other observations

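Motif matches were also set against expression over genes outside the 36. The 806 counted genes with a CHR and a CCAAT box in the same promoter window had a median log2 ratio of old p16-/- over old WT of 0.06, with 56.3% above 0, beside 0.02 and 52.0% for 10817 genes without that pair. For old WT over young WT the medians were 0.00 over 793 genes and -0.00 over 10740. Genes with both motifs within 40 bases of each other had 0.09 over 334 and -0.01 over 331. Genes outside the 36 include the other G2/M genes, whose median for old p16-/- over old WT was 0.53. Of their 63 windows 32 held both motifs, and 24 held them within 40 bases. The part of these genes in the medians was not tested. The comparison was added after the data were seen.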
